A study of Homo sapiens with 18 samples.

Results

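Imprinted genes are genes of which mainly the maternal or mainly the paternal copy is transcribed. The 10 described here were DLK1, MEG3, RTL1, H19, IGF2, PEG3, PEG10, NNAT, MEST and CDKN1C. They were taken by symbol from the deposited tables, 10 of 53853 genes. No cutoff on a measured value was set for the choice, but earlier results of these data were known when it was made. The choice of parental copy is set by DNA methylation at control regions laid down in the germ line, and several imprinted genes usually share such a region. Many of these genes act on fetal growth, the placenta and the developing brain, where DLK1, PEG10, NNAT and MEST are known for strong expression in young neurons. The counts add both parental copies together, so they give the level of each gene and not its imprint.

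The study measured poly(A) RNA in cerebral organoids, which are brain-like tissues grown from stem cells, derived by a ventral forebrain protocol from H9 and H1 human embryonic stem cells. Organoids of day 83 fell into 6 groups of 3 libraries, numbered 1 to 18 by the submitters: H9 chronic (10 to 12), H9 acute (13 to 15), H9 control (16 to 18), H1 chronic (1 to 3), H1 acute (4 to 6) and H1 control (7 to 9). Chronic organoids had 1 µM dopamine daily for 1 week and a last dose of 1 hour, and acute organoids had 1 hour of 1 µM dopamine after a week of vehicle. Controls had vehicle throughout, and all 6 groups received 100 µM ascorbic acid, the vehicle. Each line stands for 1 genotype, so a difference between H9 and H1 is one between these cultures. Nothing in the labels ties the libraries of 1 group to separate cultures, so p-values measure the spread between libraries, which may be technical.

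The 17 libraries used held 13647204 to 21691180 counts. H1 control library 9 held 43284 counts and was left out of all means and tests, so the H1 control group rests on libraries 7 and 8. The organoids were neural in both lines: 8 neural markers summed to 8160 to 8960 CPM (read counts scaled to library size) in H9 and 6620 to 7710 CPM in H1. The lines differed in regional markers. NKX2-1, the ventral forebrain factor, was at 33.2 to 74.6 CPM in H9 and 0 to 1.03 CPM in H1. This defining marker of the labelled ventral forebrain identity was near 0 in H1, but not all ventral markers were. All 6 ventral forebrain markers summed to 698 to 1330 CPM in H9 and 20.1 to 367 CPM in H1. GAD1, GAD2 and LHX6 were higher in every H9 library than in any H1 library. DLX1 overlapped, at 108 to 199 CPM in H9 and 7.94 to 162 CPM in H1. DLX2 also overlapped, averaging 27.9 CPM in H9 and 48.4 CPM in H1. Dorsal forebrain markers (5 genes) summed to 3.78 to 8.59 CPM in H9 and 768 to 1380 CPM in H1. In bulk RNA, fewer cells of a type and less RNA per cell cannot be told apart. Libraries 13, 17, 18, 4 and 8 held more counts of 10 blood markers (220 to 3148) than of 6 gut markers, and the other libraries used held 0 to 46 blood counts. With a term for this split the calls of imprinted genes below between the lines and the RTL1 call in H9 held. The CDKN1C call in H1 was lost with a log2 fold change of 0.86 (0.87 without the term), and the SLC22A18 call in H9 was lost with one of 1.13 (1.12 without the term). Of the 17567 genes that passed the low-count filter, 74.5% differed between the lines, 38.6% being higher and 35.9% lower in H9. Of the 10 imprinted genes 8 passed that filter. MEG3 and PEG3 did not, and RTL1 and H19 passed through their H9 libraries alone, so a higher level in H9 was bound to appear for RTL1 and H19.

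RTL1 had the largest difference between the lines among these genes, and RTL1, MEG3 and H19 all had counts mainly in H9, so their sequences are shown first. The promoter windows of these genes, taken from RefSeq on GRCh38.p14, run from 250 bases before to 50 bases after the transcript start and are written 5′ to 3′ on the gene's strand, with CG dinucleotides in capitals because CG is the site of imprinting methylation. RefSeq gives 3 MEG3 windows, of which the first is shown. The RTL1 window is chr14:100903673-100903972 on the minus strand, the MEG3 window chr14:100825858-100826157 on the plus strand and the H19 window chr11:2001217-2001516 on the minus strand. The MEG3 and H19 windows lie inside the gene spans given below, away from the gene ends at 100779410 and 2004552. They describe single transcript starts and not every promoter of these genes.
RTL1: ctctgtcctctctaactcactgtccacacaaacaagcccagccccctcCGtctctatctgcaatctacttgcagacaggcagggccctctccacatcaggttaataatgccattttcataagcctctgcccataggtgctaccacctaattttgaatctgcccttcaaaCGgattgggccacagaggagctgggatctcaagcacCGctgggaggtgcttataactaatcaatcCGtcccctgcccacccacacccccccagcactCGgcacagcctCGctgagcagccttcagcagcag
MEG3: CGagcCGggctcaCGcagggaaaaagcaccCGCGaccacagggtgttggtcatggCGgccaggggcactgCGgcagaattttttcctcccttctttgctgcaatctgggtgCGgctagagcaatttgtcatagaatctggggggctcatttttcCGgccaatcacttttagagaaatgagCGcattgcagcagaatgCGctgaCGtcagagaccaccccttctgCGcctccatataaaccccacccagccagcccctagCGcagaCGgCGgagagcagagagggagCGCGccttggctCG
H19: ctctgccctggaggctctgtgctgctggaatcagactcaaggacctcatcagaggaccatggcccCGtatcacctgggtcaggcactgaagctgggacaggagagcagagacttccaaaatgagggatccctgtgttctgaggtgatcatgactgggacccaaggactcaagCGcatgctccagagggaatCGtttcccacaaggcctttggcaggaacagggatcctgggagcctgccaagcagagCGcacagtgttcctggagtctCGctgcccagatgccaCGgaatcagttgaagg
The RTL1 and H19 windows held 6 CG dinucleotides each and the MEG3 window 19, against a median of 14 over 35116 RefSeq promoter windows of the same length. The letters TGCCGC, searched on both strands as the core of the motif bound by the imprint-keeping factor ZFP57, occurred once in the MEG3 window and in neither of the RTL1 and H19 windows, and 16.7% of all windows held them. CG dinucleotides overlap this motif. A match of letters is a description of the window and not a binding site.

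RTL1 lies on the minus strand of chromosome 14, at 100879753 to 100903722 in GENCODE v44 on GRCh38. On the opposite strand the RefSeq reference used here lists the hairpins of 4 miRNAs inside the gene, which may not be all. These miRNAs are transcribed from the maternal copy and pair perfectly with the RTL1 transcript. Mature strands are shown 5′ to 3′ with the seed (bases 2 to 8) in capitals, because these sequences are known antisense partners of the gene with the largest line difference.
hsa-miR-431-5p: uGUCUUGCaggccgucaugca
hsa-miR-433-3p: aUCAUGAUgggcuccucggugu
hsa-miR-127-3p: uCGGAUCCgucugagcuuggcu
hsa-miR-136-5p: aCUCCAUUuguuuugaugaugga
The 4 seeds are all different. Each hairpin has a row in the count table, and all 4 rows held 0 counts in every library. Poly(A) libraries of this insert size are not made to catch mature miRNAs. The lncRNA MEG8 also overlaps RTL1 on the plus strand, and its row was 0 in all libraries. The libraries are strand-specific, but no source used here gives the strand setting of the counting, so RTL1 reads cannot be told apart from reads of these antisense transcripts.

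In the DLK1-DIO3 domain of chromosome 14, DLK1, RTL1, MEG3, MEG9 and DIO3 each had more counts in H9 than in H1. The domain joins paternally expressed protein genes (DLK1, RTL1, DIO3) with maternally expressed non-coding genes (MEG3, MEG8, MEG9). DLK1, a transmembrane protein with EGF-like repeats related to Notch ligands, lies at 100725705 to 100738224 on the plus strand. It stood at 40.9, 65.6 and 42.5 CPM in H9 chronic libraries, 33, 55.8 and 26.8 CPM in H9 acute libraries and 34.9, 75.8 and 31.9 CPM in H9 control libraries. It stood at 2.32, 1.95 and 2.86 CPM in H1 chronic libraries, 1.86, 2.15 and 1.35 CPM in H1 acute libraries and 0.285 and 0.947 CPM in H1 control libraries. All H9 libraries were above all H1 libraries. The means were 45.3 ± 16.8 CPM in H9 (SD, n = 9) and 1.71 ± 0.819 CPM in H1 (SD, n = 8), a log2 fold change of 5.01 ± 0.27 (SE; edgeR adjusted p = 2.16e-11). Adjusted p-values are from edgeR's quasi-likelihood test with Benjamini-Hochberg adjustment over all genes tested.

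**Figure D1:**
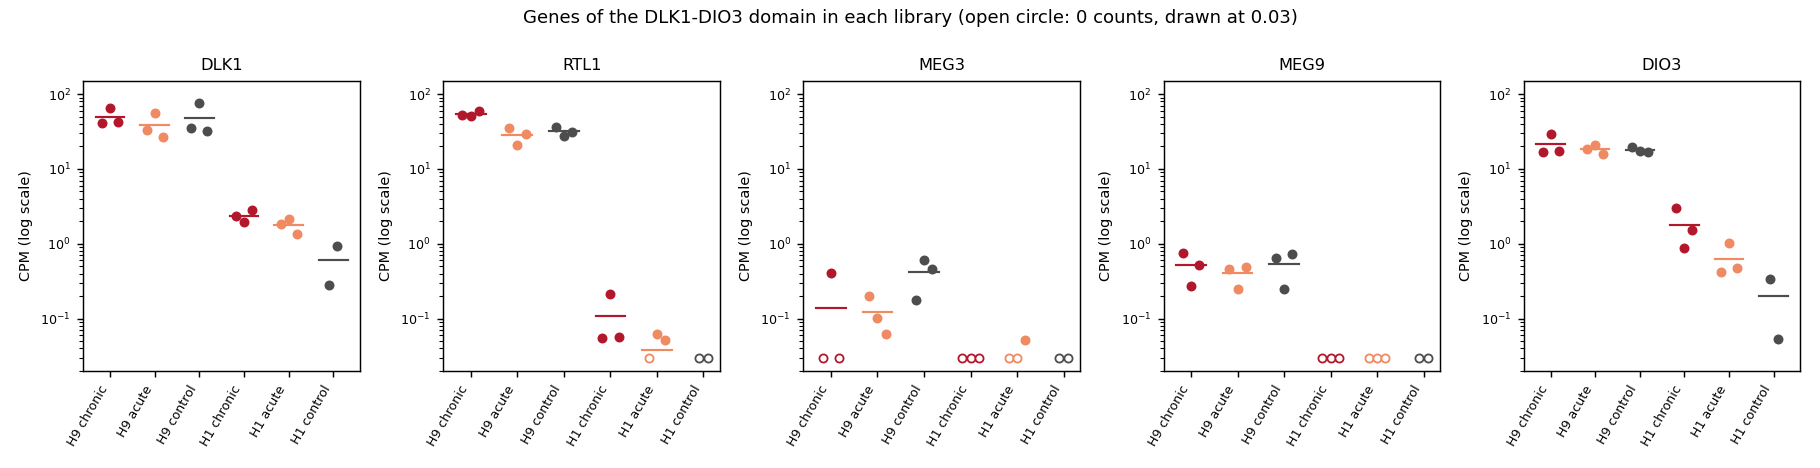
CPM (log axis) of DLK1, RTL1, MEG3, MEG9 and DIO3 in each library, by group, with H9 groups left of H1 groups and bars at group means; open circles are libraries with 0 counts. DLK1, RTL1 and DIO3 sit above 15 CPM in every H9 library and below 3 CPM in every H1 library.

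RTL1, a protein gene derived from a retrotransposon and needed for placental capillaries in mice, was close to silent in H1. H1 libraries held 0 to 3 RTL1 counts, 7 in all, while H9 libraries held 417 to 937, 5610 in all. Scaled by library, the ratio of H9 to H1 counts was 763, with a 95% Poisson interval of 370 to 1900 that covers counting error only. Between control libraries, H9 averaged 31.7 CPM and H1 had 0 counts, which makes H9 at least 387-fold higher when 3 counts are set over the H1 control group. The fitted log2 fold change over all treatments was 10.15 ± 0.26 (SE; edgeR adjusted p = 7.96e-15), a size that depends on how counts of 0 are handled.

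MEG3, the maternally expressed lncRNA of the domain (chromosome 14, 100779410 to 100861031, plus strand), had few counts in both lines. H9 libraries held 0 to 10 counts, 34 in all, with 0, 6 and 0 in chronic, 3, 2 and 1 in acute and 3, 10 and 9 in control organoids. H1 libraries held 1 count in all, in acute library 6. The count ratio was 32.4 (95% Poisson interval 5.43 to 1320, counting error only), and MEG3 entered no test. MEG9, a lncRNA further along the domain, had 4 to 14 counts in each H9 library and 0 in each H1 library. DIO3, the thyroid hormone deiodinase at the far end of the domain, averaged 19.3 ± 4.17 CPM in H9 (SD, n = 9) and 0.961 ± 0.941 CPM in H1 (SD, n = 8), a log2 fold change of 4.98 ± 0.26 (SE; edgeR adjusted p = 1.34e-11). Per length, median values in H9 were 30.7 TPM (transcripts scaled by gene length and library size) for DLK1, 28.5 TPM for RTL1 and 0.06 TPM for MEG3. The paternally expressed protein genes were counted in H9 at levels far above those of the maternally expressed MEG3, whose poly(A) transcripts were near the limit of 3 counts in most libraries.

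On chromosome 11, H19 and IGF2 share a control region and normally come from opposite parental copies. H19, a maternally expressed lncRNA that is abundant in fetal mesoderm and endoderm, spans 1995166 to 2004552 on the minus strand. It had 16, 34 and 24 counts in H9 chronic libraries, 26, 316 and 16 in H9 acute libraries and 25, 25 and 24 in H9 control libraries. It had 4, 2 and 2 counts in H1 chronic libraries, 4, 0 and 2 in H1 acute libraries and 1 and 2 in H1 control libraries. All H9 libraries were above all H1 libraries, and H9 acute library 14 stood far above the other H9 libraries. The log2 fold change of H9 over H1 was 4.36 ± 0.65 (SE; edgeR adjusted p = 1.1e-05), and 3.62 without library 14.

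IGF2, the fetal growth factor that signals through IGF1R and is cleared by IGF2R, lies at 2129112 to 2158391 on the same strand. It was at 2.54, 1.65 and 0.646 CPM in H9 chronic libraries, 2.07, 25.5 and 2.76 CPM in H9 acute libraries and 2.13, 8.02 and 8.93 CPM in H9 control libraries. It was at 4.2, 10 and 6.05 CPM in H1 chronic libraries, 3.81, 8.21 and 2.29 CPM in H1 acute libraries and 1.83 and 2.89 CPM in H1 control libraries. The lines overlapped widely. The log2 fold change of H9 over H1 was 0.17 ± 0.49 (SE; 95% interval -0.87 to 1.2; edgeR adjusted p = 0.772), and it was -0.535 without library 14. IGF2 also overlaps INS-IGF2 on the same strand and the antisense IGF2-AS. INS-IGF2 was 0 in every library and IGF2-AS had 0 to 4 counts.

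H9 acute library 14 was the highest H9 library for both genes of this pair. After the line mean was subtracted, log2 CPM of IGF2 and H19 had a Pearson r of 0.56 over the 17 libraries and -0.06 without library 14, given as a description. Summed mesenchyme markers (6 of 6 with counts in every library) were 17.8 to 23.1 CPM in H9 chronic, 39.3 to 139 CPM in H9 acute and 35.8 to 388 CPM in H9 control libraries. Library 14 had 115 CPM, less than the 139 CPM of library 13, where IGF2 was at 2.07 CPM. The single markers split between these libraries. COL1A1 and COL1A2 were at 16.8 and 16.7 CPM in library 14 and 51 and 35.6 CPM in library 13. COL3A1, DCN, LUM and PDGFRA were at 46.5, 21.5, 9.02 and 4.23 CPM in library 14. They were lower in library 13, at 25.9, 16.7, 6.26 and 3.13 CPM. In H9 controls, libraries 17 and 18 had 388 and 318 CPM of mesenchyme markers and IGF2 at 8.02 and 8.93 CPM, while library 16 had 35.8 CPM and IGF2 at 2.13 CPM. Libraries 13, 17 and 18 also held more blood than gut marker counts, unlike the other H9 libraries. The parts of mesenchyme and of this blood split in these IGF2 levels were not tested.

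**Figure D2:**
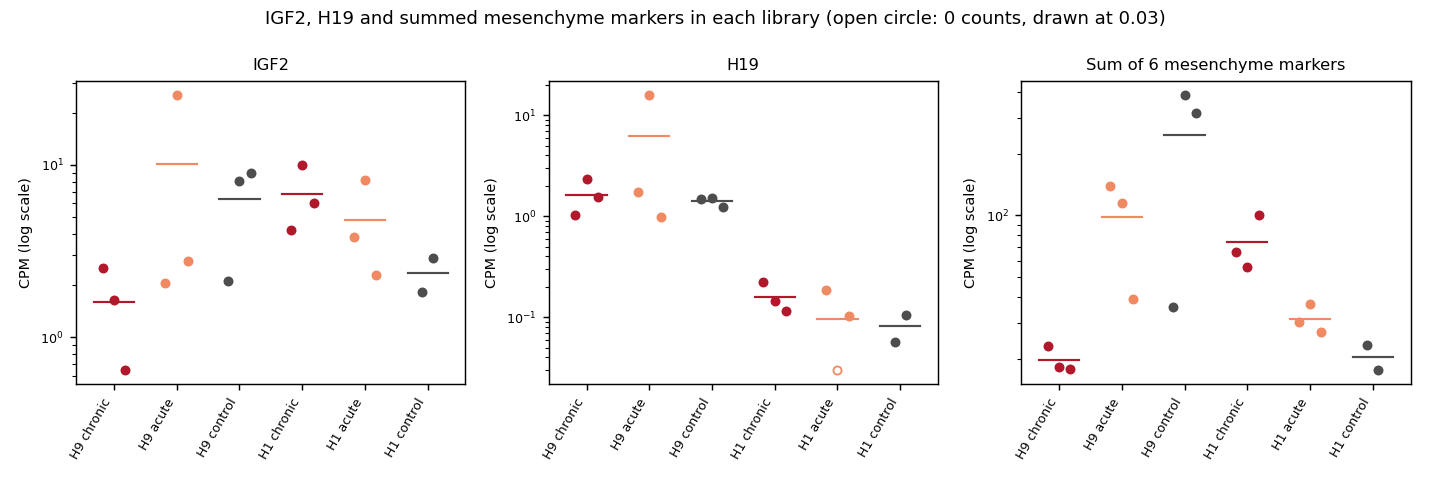
CPM (log axes) of IGF2, H19 and the sum of 6 mesenchyme markers in each library, by group, with bars at group means and an open circle for 0 counts. H9 acute library 14 is the top point for IGF2 (25.5 CPM) and H19 (15.9 CPM), while the highest mesenchyme sum (388 CPM) is in H9 control library 17.

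CDKN1C, a maternally expressed inhibitor of cyclin-dependent kinases (chromosome 11, 2883213 to 2885775, minus strand), was higher in H9. It ranged over 23.7, 26.8 and 42.5 CPM (lowest, median, highest of 9) in H9 and 5.1, 7.12 and 11.5 CPM (of 8) in H1, with no overlap. The log2 fold change was 1.94 ± 0.11 (SE; edgeR adjusted p = 3e-11). Markers of cycling cells moved with it in the other direction: 4 of 4 such genes summed to 19.4 to 50.2 CPM in H9 and 372 to 543 CPM in H1. Their part in the CDKN1C difference was not tested.

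PEG10, a paternally expressed gene derived from a retrotransposon Gag-Pol sequence (chromosome 7, 94656325 to 94669695, plus strand), was among the most abundant transcripts of H9 organoids. It ranged over 3060, 4300 and 5180 CPM (lowest, median, highest) in H9 and 981, 1140 and 1230 CPM in H1. By TPM it ranked between 19 and 89 of all genes in H9 libraries and between 178 and 243 in H1 libraries. The groups did not overlap, with a log2 fold change of 1.93 ± 0.09 (SE; edgeR adjusted p = 5.48e-12). SGCE, the paternally expressed gene that starts beside PEG10 on the other strand, averaged 32.7 ± 3.54 CPM in H9 (SD, n = 9) and 29.1 ± 5.35 CPM in H1 (SD, n = 8), a log2 fold change of 0.20 ± 0.10 (SE; edgeR adjusted p = 0.0846). MEST, a paternally expressed gene of the hydrolase fold family (chromosome 7, 130486171 to 130506465, plus strand), ranged over 151, 171 and 282 CPM in H9 and 82.9, 109 and 126 CPM in H1, with a log2 fold change of 0.86 ± 0.09 (SE; edgeR adjusted p = 1.88e-07). Its antisense partner MESTIT1 was at 0.756 to 2.37 CPM in H9 and 0.913 to 2.28 CPM in H1.

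NNAT, which encodes a small membrane protein of developing neurons, had the highest median TPM of the 10 genes in both lines. It lies on the plus strand of chromosome 20 at 37521206 to 37523690, inside BLCAP on the other strand. It ranged over 878, 1220 and 2080 CPM in H9 and 734, 969 and 1470 CPM in H1, and the lines overlapped. The log2 fold change was 0.33 ± 0.16 (SE; 95% interval -0.01 to 0.66; edgeR adjusted p = 0.0727), and DESeq2 passed it at an adjusted p of 0.0433. BLCAP averaged 460 ± 53.9 CPM in H9 (SD, n = 9) and 242 ± 16.3 CPM in H1 (SD, n = 8). PEG3, a paternally expressed zinc finger gene (chromosome 19, 56810077 to 56840728, minus strand), had 1 to 10 counts in H9 libraries, 43 in all, and 1 count in all H1 libraries. The ratio was 41 (95% Poisson interval 6.97 to 1650, counting error only). ZIM2, which shares the start of PEG3, was 0 in every library.

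**Figure D3:**
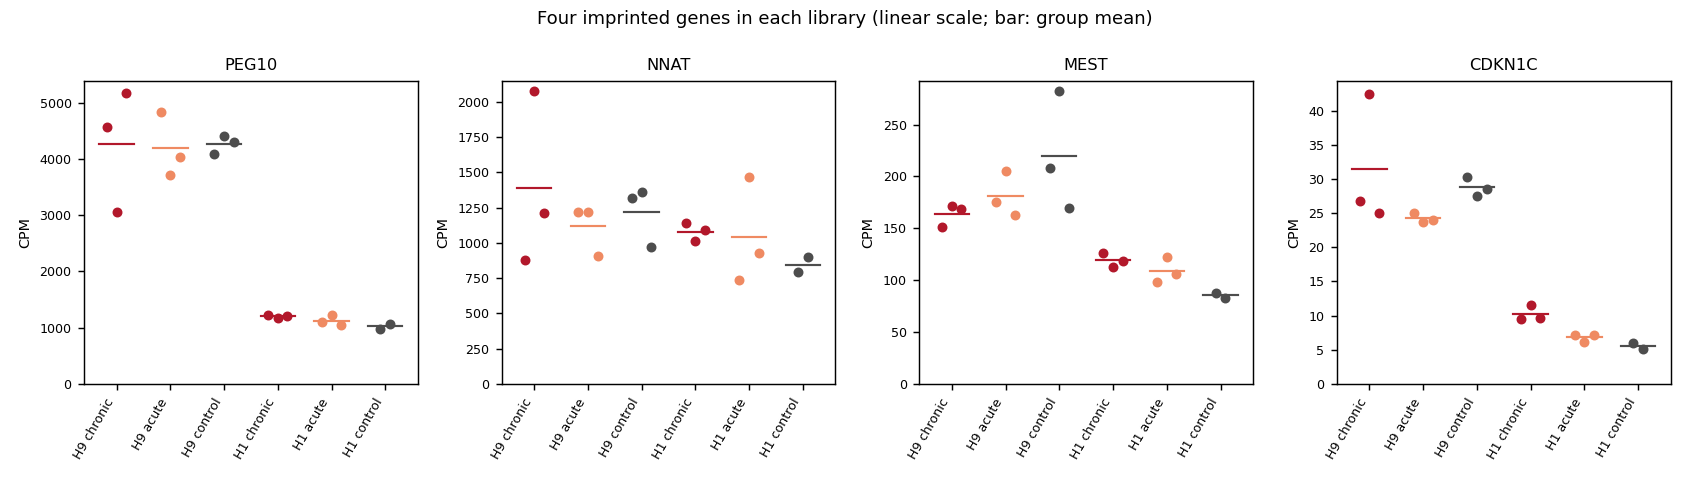
CPM (linear axes from 0) of PEG10, NNAT, MEST and CDKN1C in each library, by group, with H9 groups left of H1 groups and bars at group means. PEG10, MEST and CDKN1C do not overlap between the lines, and NNAT does.

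By median TPM the order in H9 was NNAT (3210), PEG10 (2250), MEST (192), CDKN1C (47.8), DLK1 (30.7), RTL1 (28.5), H19 (2.02), IGF2 (1.39), PEG3 (0.09) and MEG3 (0.06). In H1 it was NNAT (2490), PEG10 (579), MEST (119), CDKN1C (12), IGF2 (2.13), DLK1 (1.38), H19 (0.145) and RTL1 (0.045), with MEG3 and PEG3 at a median of 0. The first 4 places were held by the same genes in both lines. In H9, DLK1 (20.6 to 55.5 TPM) and RTL1 (17.24 to 49.33 TPM) overlapped, as did H19 and IGF2. In H1, IGF2 (0.94 to 5.35 TPM) and DLK1 (0.2 to 2.06 TPM) overlapped. NNAT and PEG10 overlapped in H9 and were far apart in H1, where PEG10 reached at most 638.64 TPM and NNAT never fell below 1906.3 TPM.

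Taking the tested genes as a group, 6 of 8 passed the test as higher in H9 and 0 as lower, against 38.6% and 35.9% of all genes tested. Of these 8, 6 had all H9 libraries above all H1 libraries, against 22.7% of all genes tested. The median log2 fold change was 1.94, also with RTL1 set at its lower bound, against 0.03 over all genes tested. Because RTL1 and H19 entered the test through H9, these counts describe the genes and support no statement about imprinted genes in general. The part of the regional and cycling markers in these differences was not tested.

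**Figure D4:**
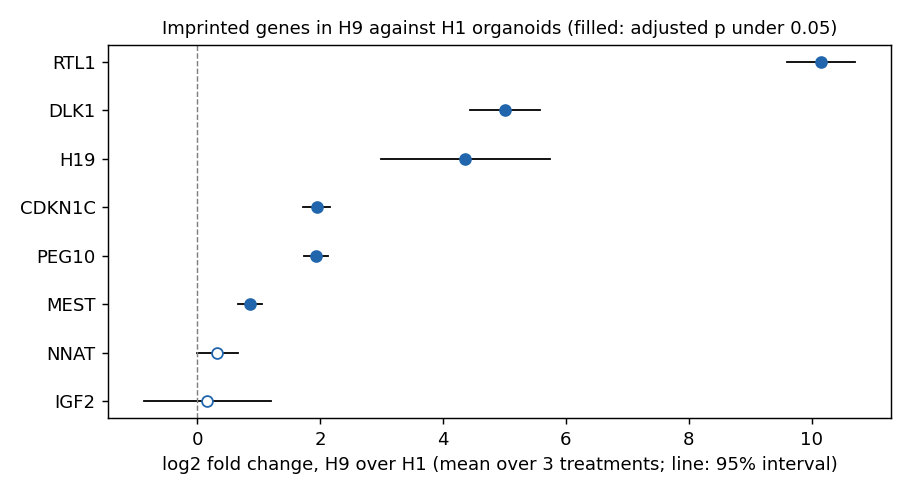
Log2 fold change of H9 over H1 (mean over the 3 treatments) for the 8 tested imprinted genes, with 95% intervals. RTL1 (10.15), DLK1 (5.01) and H19 (4.36) lie farthest from 0, and the intervals of NNAT and IGF2 include 0.

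Other imprinted genes showed both directions. Of 21 further paternally expressed genes, 16 were tested, 10 were higher and 3 lower in H9, with a median log2 fold change of 0.50. For this list and those that follow, 38.6% of all genes tested were higher and 35.9% lower, with a median of 0.03. MAGEL2, a ubiquitin ligase regulator of the Prader-Willi region, had a log2 fold change of 2.26 ± 0.08, NAP1L5 of 1.41 ± 0.06, SNRPN of 0.99 ± 0.09 and ZDBF2 of 1.47 ± 0.14 (SE; edgeR adjusted p = 7.05e-08 or smaller). Of 10 further maternally expressed genes of imprinted domains, 9 were tested, 7 were higher and 1 was lower. MEG9 had 0 counts in every H1 library, and KCNQ1, ATP10A and PHLDA2 had at most 4, 8 and 10. These genes passed the filter through H9, so a higher level in H9 was bound to appear for them. The lower one was ZNF597, at 2.77 ± 0.614 CPM in H9 (SD, n = 9) and 9.85 ± 0.69 CPM in H1 (SD, n = 8), a log2 fold change of -1.84 ± 0.10 (SE; edgeR adjusted p = 4.68e-11). ATP10A and KCNQ1 were higher by 3.57 ± 0.35 and 4.18 ± 0.44 on the log2 scale (SE; edgeR adjusted p = 6.52e-08 and 1.76e-07), sizes that depend on how low counts are handled, since H1 averaged 0.237 and 0.0851 CPM. GNAS, which encodes the stimulatory G protein subunit, was higher by 0.69 ± 0.09 (SE; edgeR adjusted p = 1.16e-06).

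The insulin-like growth factor pathway around IGF2 also split. Of 16 genes, 15 were tested, 5 were higher and 8 lower in H9, with a median log2 fold change of -0.29. The RNA-binding proteins IGF2BP3, IGF2BP1 and IGF2BP2, which bind IGF2 messenger RNA, had log2 fold changes of -1.60 ± 0.08, -1.98 ± 0.10 and -1.45 ± 0.10 (SE; edgeR adjusted p = 5.6e-10 or smaller). IRS1, an adaptor below the receptors, was higher by 1.16 ± 0.12 (SE; edgeR adjusted p = 1.95e-07). The receptor IGF1R averaged 106 ± 22.7 CPM in H9 (SD, n = 9) and 210 ± 14.5 CPM in H1 (SD, n = 8). IGF2R averaged 96.4 ± 15.5 CPM in H9 and 97 ± 10.6 CPM in H1, closer than the spread between libraries. Both receptors are named for their role. Of the 10 Gag-derived relatives of RTL1 and PEG10, 8 were tested, 3 were higher and 3 lower. The largest was RGAG1 at 1.66 ± 0.14 (SE; edgeR adjusted p = 1.29e-08), with 9.17 ± 1.12 CPM in H9 (SD, n = 9) and 2.89 ± 0.682 CPM in H1 (SD, n = 8), and FAM127C and C22orf29 were lower by log2 fold changes of -0.55 and -0.30.

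Under chronic dopamine in H1 CDKN1C rose, and the other 7 tested genes had higher values without passing the test. CDKN1C was at 9.46, 11.5 and 9.65 CPM in chronic, 7.15, 6.13 and 7.09 CPM in acute and 6.05 and 5.1 CPM in control libraries. All chronic libraries were above all acute and control libraries. Of all genes tested, 19.5% had all H1 chronic libraries above the controls and 8.64% above the acute libraries. The log2 fold change of chronic over control was 0.87 ± 0.20 (SE; edgeR adjusted p = 0.0408), and 1.59% of all genes tested passed in this comparison, 1.3% as higher. The size changed little and the call is narrow. Over the left-out libraries it was 0.75 to 1.00 on the log2 scale, while the edgeR adjusted p was 0.562 without control library 8, 0.0884 with a term that separates libraries holding more blood than gut transcripts, and the call was lost without any one of 10 libraries (1, 2, 3, 6, 7, 8, 13, 14, 15 or 16), at edgeR adjusted p of 0.0515 to 0.562.

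The other tested genes did not pass in this comparison by the edgeR fit of all libraries. DLK1 was at 2.32, 1.95 and 2.86 CPM in chronic against 0.285 and 0.947 CPM in control libraries, a log2 fold change of 1.92 ± 0.64 (SE; edgeR adjusted p = 0.188). DLK1 did pass with DESeq2 (adjusted p = 0.00673), with no low-count filter (edgeR, 0.0153) and with limma on log2(TPM + 0.1) (0.027). MEST was at 126, 113 and 118 CPM in chronic against 87.6 and 82.9 CPM in control libraries (0.48 ± 0.17; edgeR adjusted p = 0.23), and it passed when only H1 libraries were fitted (edgeR adjusted p = 0.0422). IGF2 (1.5 ± 0.93), NNAT (0.35 ± 0.30) and PEG10 (0.25 ± 0.17) had adjusted p of 0.644, 0.781 and 0.68 in the edgeR test. DIO3, which is outside the 10 genes and was looked at because it closes the DLK1 domain, did pass, with 2.99, 0.865 and 1.54 CPM in chronic against 0.342 and 0.0526 CPM in control libraries (3.21 ± 0.67; edgeR adjusted p = 0.0206). That call was lost without control library 8 (adjusted p = 0.444) or chronic library 1 (0.0968), or with only H1 libraries fitted (0.0656), by the same edgeR test.

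In each of the 8 tested genes all 3 H1 chronic libraries lay above both H1 control libraries, and 19.5% of all genes tested did the same. Of the 8, RTL1 (1, 3 and 1 counts against 0 and 0) and H19 (4, 2 and 2 counts against 1 and 2) rest on single reads. The median log2 fold change of the 8 was 0.89, and 0.68 with RTL1 at its lower bound, against 0.01 over all genes tested. Other tissue markers moved with chronic dopamine in H1, every gene of these lists having counts in each chronic library. Pigment cell markers (4 genes) summed to 14.1 to 16.5 CPM in chronic and 1.74 to 1.94 CPM in control libraries, where TYRP1 or MLANA was at 0, mesenchyme markers to 56.2 to 101 and 17.6 to 23.3 CPM, ventral forebrain markers (6 genes) to 209 to 367 and 20.1 to 67.8 CPM, and dorsal forebrain markers (5 genes) to 768 to 829 and 1140 to 1380 CPM. Their part in the levels of the imprinted genes was not tested.

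**Figure D5:**
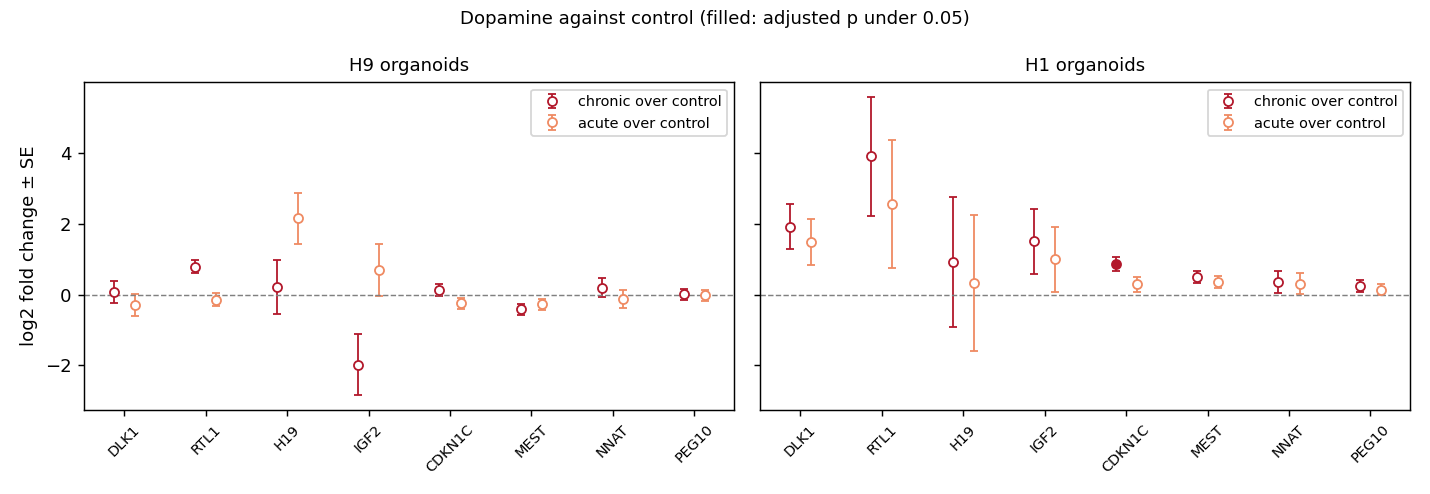
Log2 fold change ± SE of the 8 tested imprinted genes for chronic and acute dopamine over control, in H9 (left) and H1 (right); filled points have an adjusted p under 0.05. Only CDKN1C under chronic dopamine in H1 is filled, and the fitted values of RTL1 in H1 depend on how its 0 counts in the controls are handled.

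In H9, none of the 8 tested genes passed the edgeR test for chronic dopamine against control, in which 0.649% of all genes tested passed and 2074 genes had an unadjusted p under 0.05. RTL1 came closest, at 53.2, 50.4 and 60.5 CPM in chronic, 35.8, 21 and 29 CPM in acute and 36.3, 27.7 and 31.3 CPM in control libraries. The chronic libraries were above all acute and control libraries. Of all genes tested, 5.66% had all H9 chronic libraries above the controls and 9.61% above the acute libraries. The log2 fold change of chronic over control was 0.79 ± 0.18 (SE; edgeR adjusted p = 0.0645), and DESeq2 passed it at an adjusted p of 0.0122. Against acute dopamine RTL1 did pass, with a log2 fold change of 0.94 ± 0.19 (SE; edgeR adjusted p = 0.02), where 1.45% of all genes tested passed and 0.216% as higher. That call was lost without acute library 14 (adjusted p = 0.118), acute library 15 (0.0553) or chronic library 12 (0.0616), each by the same edgeR test. DLK1, whose control region RTL1 shares, had a log2 fold change of 0.06 ± 0.32 for chronic over control and 0.36 ± 0.32 for chronic over acute (SE; edgeR adjusted p = 0.964 and 0.548). Ventral forebrain markers summed to 1190 to 1330 CPM in H9 chronic, 698 to 1030 CPM in H9 acute and 878 to 1080 CPM in H9 control libraries. GAD1 made up most of each sum. GAD1 and DLX1 were higher in all chronic than in all control libraries, while NKX2-1, DLX2, LHX6 and GAD2 overlapped. The part of the ventral forebrain markers in the RTL1 level was not tested.

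MEST had opposite signs in the lines under chronic dopamine. It was at 151, 171 and 169 CPM in H9 chronic against 208, 282 and 170 CPM in H9 control libraries, a log2 fold change of -0.42 ± 0.15 (SE; edgeR adjusted p = 0.247), and the groups overlapped by 1 library. The chronic effect in H9 minus that in H1 was -0.90 ± 0.23 (SE; edgeR adjusted p = 0.0524), which did not pass, and 1.72% of all genes tested did. DESeq2 and limma on log2(TPM + 1) passed it, at adjusted p of 0.00706 and 0.0337. IGF2 had a log2 fold change of -1.98 ± 0.86 for chronic over control in H9 (SE; edgeR adjusted p = 0.366) and -3.48 ± 1.27 for the difference between the lines (SE; edgeR adjusted p = 0.192). Summed mesenchyme markers were 17.8 to 23.1 CPM in H9 chronic and 35.8 to 388 CPM in H9 control libraries. Their part in the IGF2 level was not tested. Like MEST and IGF2, the other 6 tested genes had a lower chronic effect in H9 than in H1, and none passed in the edgeR fit of all libraries. Over all genes tested, 47.8% had a higher chronic effect in H9, with a median difference of -0.02. The H1 effects of RTL1 and H19 rest on at most 3 and 4 counts per library. CDKN1C passed with limma on log2(TPM + 1) and log2(TPM + 0.1) (adjusted p = 0.0378 and 0.0298) and without chronic library 11 (edgeR, 0.00724), and DLK1 with DESeq2 (0.0474) and with no filter (edgeR, 0.0406). IGF2 passed with no filter (edgeR, 0.0141) and without acute library 14 (edgeR, 0.049). The difference between the lines shares its control libraries with the comparisons within each line.

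None of the 8 tested genes passed the edgeR test for acute dopamine against control in either line. In H9 0 genes of 17567 (0%) passed, with 526 at an unadjusted p under 0.05 and 12 by DESeq2. In H1 0.0114% passed. H19 had a log2 fold change of 2.15 ± 0.71 over control in H9 (SE; edgeR adjusted p = 1), which was -0.06 without library 14. IGF2 had 0.69 ± 0.74 in the same comparison (SE; edgeR adjusted p = 1) and -1.40 without library 14. In H1, DLK1 was at 1.86, 2.15 and 1.35 CPM in acute against 0.285 and 0.947 CPM in control libraries, a log2 fold change of 1.49 ± 0.65 (SE; edgeR adjusted p = 1). The difference in the acute effect between the lines passed for none of the 8 genes, in a test that passed 0 genes of 17567 (0%), with 715 at an unadjusted p under 0.05 and 8 by DESeq2. Chronic against acute dopamine in H1 passed none of the 8 genes, and 0.0455% of all genes tested.

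In chronic and acute dopamine against control, none of the tested genes of the paternal, maternal, insulin-like growth factor and Gag-derived lists passed in either line. In H9 chronic against acute, SLC22A18, a maternally expressed transporter beside CDKN1C, was at 5.13 ± 1.06 CPM in chronic and 2.37 ± 0.548 CPM in acute libraries (SD, n = 3 each), a log2 fold change of 1.12 ± 0.26 (SE; edgeR adjusted p = 0.0411). In the same comparison IGF2BP1 was at 10 ± 3.25 CPM in chronic and 18.2 ± 2 CPM in acute libraries (SD, n = 3 each), a log2 fold change of -0.86 ± 0.18 (SE; edgeR adjusted p = 0.0221). Without acute library 14 the edgeR adjusted p was 0.216 for SLC22A18 and 0.14 for IGF2BP1, and single libraries ended the SLC22A18 call in 8 of 17 cases (2, 3, 11, 14, 15, 16, 17 or 18) and the IGF2BP1 call in 4 (11, 12, 14 or 15). Fitting only H9 libraries ended both calls (edgeR adjusted p = 0.0947 for SLC22A18 and 0.133 for IGF2BP1). The SLC22A18 call was also lost with the blood and gut term (edgeR, 0.0703) and with limma on log2(TPM + 0.1) (0.0529). The authors' deposited tables list 55 genes for acute and 213 for chronic dopamine at an FDR of at most 0.05, and they name 0 of the 10 imprinted genes. Their labels give a treatment and no line, so they are not matched to the tests by line above. With so few genes listed, the absence of 10 genes says little.

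The genes whose log2 CPM followed 4 of the members most closely over the 17 libraries, after the line mean was subtracted, are given as a description among 16127 genes. For DLK1 they were FAM47E (Pearson r 0.81), SIX3 (0.80) and LOC100130502 (0.79). For IGF2 they were LOC284023 (0.88), SLC18A1 (0.85) and IRX3 (0.85). For H19 they were NRARP (0.83), ROBO3 (0.82) and BOC (0.82), and these values were 0.21, 0.30 and 0.21 without library 14. For MEG3 they were C1R (0.86), LOXL2 (0.84) and CAPG (0.83), on 35 counts in all. The points share library depth and tissue make-up, and a correlation over so few libraries ranks genes without testing them.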

How the data were processed

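Tables of the whole series were deposited: the authors' raw read counts by gene symbol in 18 libraries, not normalized per the file headers, and the authors' length-scaled abundances (TPM) for the same symbols. The authors' 2 deposited comparison tables also give FDR-adjusted p-values, used here only to look up the imprinted genes. Per the labels' protocols, poly(A) RNA went into paired-end libraries that keep strand (dUTP). GRCh38 and hg38, names of 1 assembly, are in the submitters' processing notes. Aligner, counter and annotation: not given in the sources used here.

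Counts were analysed with edgeR 4.0.16 (R 4.3.3): filterByExpr over the 6 groups, TMM scaling, and a quasi-likelihood F test of contrasts of 6 group means in 1 fit of 17 libraries (9 comparisons), with Benjamini-Hochberg adjustment over 17567 genes and a threshold of 0.05. H1 control library 9 was left out. CPM values are TMM-scaled, so printed CPM are relative levels. The standard error is the log2 fold change divided by the square root of F. A library with 3 counts of a gene stood at 0.138 to 0.22 CPM. Alternatives used DESeq2 1.42.0, limma 3.58.1 on log2(TPM + 1) and log2(TPM + 0.1), other scaling, no filter, a blood and gut term and leaving out single libraries. The steps were tested on simulated data. Gene symbols turned into dates (28, holding 0.439% of counts) were kept unnamed. All 10 genes were named, with up to 4 genes of smallest p per list and comparison and the 3 genes most like DLK1, MEG3, IGF2 and H19; the imprinted genes and all lists and tests were chosen with earlier results of these data known. Positions come from GENCODE v44, whose positions overlapped 260 of the 260 genes with positions in the authors' tables. A regional marker is not reported here.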

Additional observations from a re-analysis of the deposited data

Results flagged for a closer look

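Among the 8 tested genes, each in the 9 H9 and the 8 H1 libraries, 6 of 16 sets held a library far from the rest. The rule's chance rate of about 1 in 20 is for independent, normally distributed values. It does not hold for these CPM values, so 6 of 16 is given as a description. These sets mix the treatments of a line and share libraries. In H9, acute library 14 stood out for H19 (15.9 CPM) and IGF2 (25.5 CPM), chronic library 11 for CDKN1C (42.5 CPM) and NNAT (2080 CPM), and control library 17 for MEST (282 CPM). In H1, chronic library 2 stood out for RTL1 at 0.216 CPM, which is 3 counts. Chronic library 11 also had the lowest H9 value of PEG10 (3060 CPM). Its sum of ventral forebrain markers was the lowest among the H9 chronic libraries (1190 CPM), through GAD1 (744 CPM) and GAD2 (70.9 CPM). The other ventral markers NKX2-1, DLX1, DLX2 and LHX6 were highest there among these libraries (74.6, 199, 39.6 and 63.6 CPM). Control library 17 also had the highest mesenchyme sum (388 CPM). What sets these libraries apart was not tested.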

How the results depend on the processing

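The count of imprinted genes passing in H9 against H1 was 6, and 6 to 9 over all alternatives. For chronic dopamine against control in H1 it was 1, and 2 with DESeq2, with no low-count filter, with limma on log2(TPM + 0.1) and with only H1 libraries, 0 with the blood and gut term, and 0 to 1 when single libraries were left out. For chronic dopamine in H9 it was 0, and 1 with DESeq2 and with no filter, and 0 to 1 over left-out libraries. For chronic against acute dopamine in H9 it was 1, and 3 with no filter, 0 with limma on log2(TPM + 0.1) and with only H9 libraries, and 0 to 1 over left-out libraries, a range that also held in H1. For the difference between lines in the chronic effect it was 0, and 3 with no filter, 2 with DESeq2 and with limma at either offset, and 0 to 2 over left-out libraries. On deposited TPM and on CPM without TMM, scales chosen after seeing the data, all 8 tested genes again had the H1 chronic libraries above the controls, RTL1 and H19 on 0 to 4 counts. Leaving out a control could not change that order. Of 1098 recomputed log2 fold changes 7 reversed. IGF2 in H9 against H1 was -0.014 and -0.157 with limma on log2(TPM + 1) and log2(TPM + 0.1), -0.004 without library 10 and -0.535 without library 14, the lowest of the left-out libraries, with 0.366 the highest. Without library 14, H19 was 0.274 for chronic against acute in H9 (range over left-out libraries -2.449 to 0.274) and -0.064 for acute against control in H9 (-0.064 to 2.659), and IGF2 was -1.4 for acute against control in H9 (-1.4 to 1.159). The cause was not tested. Over all genes, DESeq2 called 532 for chronic dopamine in H1 (edgeR 280), 346 in H9 (114), 815 for chronic against acute in H9 (254), 96 in H1 (8), 708 for the difference in the chronic effect (303), 23 for acute dopamine in H1 (2) and 12 in H9 (0). Leaving out single libraries gave 16 to 561 genes for chronic dopamine in H1 and 3 to 143 in H9. Without library 7 or 8 the lone H1 control library is assumed to vary like the other groups. No paired analysis was possible because the groups share no replicate numbers. MEG3 and PEG3 (at most 10 counts per library) and, in H1, RTL1 and H19 (at most 4) had few counts, which limits what treatment effects could be seen at this depth.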

Other observations

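Library 9, the H1 control library left out of the means, held 23 counts of NNAT, 2 of PEG10 and 2 of IGF2 among 43284, and 0 of the other 7 imprinted genes. With 3 counts at 69.3 CPM in that library, genes at 0 there could not be told apart from genes missed by shallow depth.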
